A study of Mus musculus with 6 samples.

Results

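A set of 10 integrin subunit genes is described here, namely the α chains *Itgam*, *Itgax*, *Itgae*, *Itgal*, *Itga4* and *Itgav* and the β chains *Itgb1*, *Itgb2*, *Itgb5* and *Itgb7*. They were chosen by name, and all 10 were found among the 14097 genes of the deposited table. The libraries came from colonic lamina propria macrophages (MΦs) of mice that lack the β chain of the IL-10 receptor and of littermates with 1 intact copy, and the comparison asks how loss of this receptor alters resident MΦs before, during and after weaning. Of the 6 poly(A) RNA-seq libraries, 3 were from *Il10rb-/-* mice and 3 from *Il10rb+/-* mice, all on the 129SvEv strain, with 1 library per genotype at 1, 3 and 12 weeks of age. Each 1-week library was made from pooled colons and each later library from 1 mouse, and the receptor was missing from every cell of the *Il10rb-/-* mice, not from MΦs alone. The cells were sorted as CD45+ CD11b+ CD11c-intermediate CD103- CD64+ Ly6C- MHCII+, the mature P3/P4 MΦ gate. Because CD11b, CD11c and CD103 are the proteins of *Itgam*, *Itgax* and *Itgae*, the sort itself set limits on these 3 members.

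Integrins are paired adhesion receptors in which 1 α chain joins 1 β chain, and the pair decides what the cell can hold on to. In leukocytes the β2 chain pairs with αL (LFA-1), αM (CD11b, complement receptor 3) or αX (CD11c), which bind ICAMs, complement fragments and fibrinogen. The α4 chain pairs with β1, to bind VCAM-1, or with β7, to bind MAdCAM-1 in gut vessels, and αE pairs with β7 to bind E-cadherin on epithelium. The αv chain pairs with β5 to bind vitronectin and the bridging protein MFG-E8 on dying cells, and other αv pairs release TGF-β from its latent form.

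Depth ranged from 6700337 reads in the 3-week *Il10rb+/-* library to 40754971 in the 12-week *Il10rb+/-* library, after whole reads were read back from the authors' normalized counts. *Il10rb*, the disrupted gene, had 1231, 386 and 2341 reads in the *Il10rb+/-* libraries at 1, 3 and 12 weeks and 8, 28 and 43 reads in the *Il10rb-/-* libraries, so each library matched the genotype of its label. The age in each label was not checked. Reads on 4 Y-linked genes numbered 1123 in the 1-week *Il10rb+/-* pool and 5 to 46 in every other library, so the 1-week pools differed in their share of male cells too. Sex and genotype therefore cannot be told apart in the 1-week ratios. Age comparisons that use the 1-week *Il10rb+/-* pool share this limit. The 12-week *Il10rb-/-* library stood apart: its 10 MΦ markers summed to 94687 normalized counts, against 224366 to 253268 in the *Il10rb+/-* libraries and 221790 and 226120 in the younger *Il10rb-/-* libraries. Every 12-week genotype ratio rests on this library and cannot be given without it. With 1 library per genotype and age, a ratio at 1 age has no replicate check, and its 95% exact interval covers counting error only. In these bulk libraries, fewer cells of a type and less RNA per cell cannot be told apart.

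*Itgam* encodes αM, the CD11b chain of complement receptor 3, and lies on chromosome 7 (GRCm38 chr7:128062640-128118491). It had 1583, 2205 and 1454 normalized counts in *Il10rb+/-* MΦs and 1279, 1741 and 2040.2 in *Il10rb-/-* MΦs at 1, 3 and 12 weeks. The genotype groups overlapped, and the *Il10rb-/-* library was the lower of the pair at 1 and 3 weeks and the higher at 12 weeks. The log2 ratio of *Il10rb-/-* over *Il10rb+/-* was -0.31 (-0.43 to -0.19) at 1 week, -0.34 (-0.45 to -0.23) at 3 weeks and 0.49 (0.42 to 0.56) at 12 weeks. *Itgax* encodes αX, the CD11c chain, and starts just downstream of *Itgam* on the same strand (chr7:128129547-128150657). It had 3391, 1501 and 2857 normalized counts in *Il10rb+/-* MΦs and 2807, 3007 and 5901 in *Il10rb-/-* MΦs at 1, 3 and 12 weeks. These neighbouring genes therefore differed in pattern: *Itgax* was lower in the *Il10rb-/-* library at 1 week but higher by 1.00 on the log2 scale at 3 weeks and 2.07-fold higher at 12 weeks, while *Itgam* moved by less than 1.5-fold at each age. The *Itgax* log2 ratios were -0.27 (-0.35 to -0.19), 1.00 (0.88 to 1.13) and 1.05 (1.00 to 1.09).

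The 250 bases upstream of *Itgam*, *Itgax* and *Itgb7* are shown, the first pair because these adjacent genes of the sorting gate had unlike genotype ratios and the last because it had the widest range of any member. They are RefSeq sequences of GRCm38.p6, which held entries for 7 of the 10 members, and each is written 5′ to 3′ on the strand of its gene, at chr7:128062390-128062639 (+), chr7:128129300-128129549 (+) and chr15:102231936-102232185 (-). Capitals mark matches, on either strand, to GAGGAA, a core bound by the myeloid factor PU.1, or to TGANTCA, the site of AP-1; neither motif overlaps the other here.
Itgam: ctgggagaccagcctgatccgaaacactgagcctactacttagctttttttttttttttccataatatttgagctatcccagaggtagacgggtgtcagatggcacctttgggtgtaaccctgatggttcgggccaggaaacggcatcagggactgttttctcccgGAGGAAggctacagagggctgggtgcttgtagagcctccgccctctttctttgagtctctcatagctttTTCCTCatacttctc
Itgax: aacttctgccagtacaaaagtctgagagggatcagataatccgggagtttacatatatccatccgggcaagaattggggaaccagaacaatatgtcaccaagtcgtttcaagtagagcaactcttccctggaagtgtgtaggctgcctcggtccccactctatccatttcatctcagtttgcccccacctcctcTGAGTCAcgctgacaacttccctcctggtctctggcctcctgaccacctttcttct
Itgb7: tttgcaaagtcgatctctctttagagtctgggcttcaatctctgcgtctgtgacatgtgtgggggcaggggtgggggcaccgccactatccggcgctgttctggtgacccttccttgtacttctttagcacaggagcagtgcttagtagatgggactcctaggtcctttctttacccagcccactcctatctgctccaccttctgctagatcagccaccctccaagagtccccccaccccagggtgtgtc
The *Itgam* stretch held 2 PU.1 cores, 84 and 15 bases before the start, and the *Itgax* stretch held 1 AP-1 site, 56 bases before the start. *Itgav* held 2 PU.1 cores and *Itgb1* held 1, whereas *Itga4*, *Itgb5* and *Itgb7* had a match to neither motif. Over the 32851 mouse promoters of the same length, 23.3% held the PU.1 core and 6.75% the AP-1 site. These are matches of letters and not measured binding.

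*Itgae* encodes αE, the CD103 chain, which the gate excluded (chr11:73090583-73147446). It had 13, 3 and 10 reads in *Il10rb+/-* MΦs and 10, 8 and 53 in *Il10rb-/-* MΦs at 1, 3 and 12 weeks. It was near the floor in 5 libraries, and at 33.7 normalized counts in the 12-week *Il10rb-/-* library it still missed the filter of 50 normalized counts in at least 1 library, the only member to do so. Its 12-week log2 ratio was 2.84 (1.85 to 3.98), whereas the intervals at 1 week (-1.13 to 1.52) and 3 weeks (-2.11 to 2.50) held 0. In the same 12-week pair, 5 of 7 T cell and 6 of 10 dendritic cell markers past the filter were higher in the *Il10rb-/-* library. Beside these, 5759 of all 11067 genes tested were higher. With markers below the filter counted too, these were 8 of 11 T cell and 7 of 11 dendritic cell markers other than *Itgae*. The T cell markers summed to less in the *Il10rb-/-* library, at 2164 against 3808 normalized counts. The lower ones were *Cd4* (210 against 1712), *Il7r* (947 against 1750) and *Cd8b1* (2.55 against 12.3). All other T cell markers were higher there, among them *Cd3e* (93.0 against 39.7), *Cd3g* (154 against 26.0) and *Cd8a* (41 against 0 reads). The dendritic cell markers summed to more, at 44425 against 14982, although *Siglech* was at 0. The part of these cells in the *Itgae* value was not tested. *Gsg2*, a kinase gene on the opposite strand inside *Itgae*, had 23.6 to 124 normalized counts, and the sources used here do not say whether counting used strand.

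**Figure D1:**
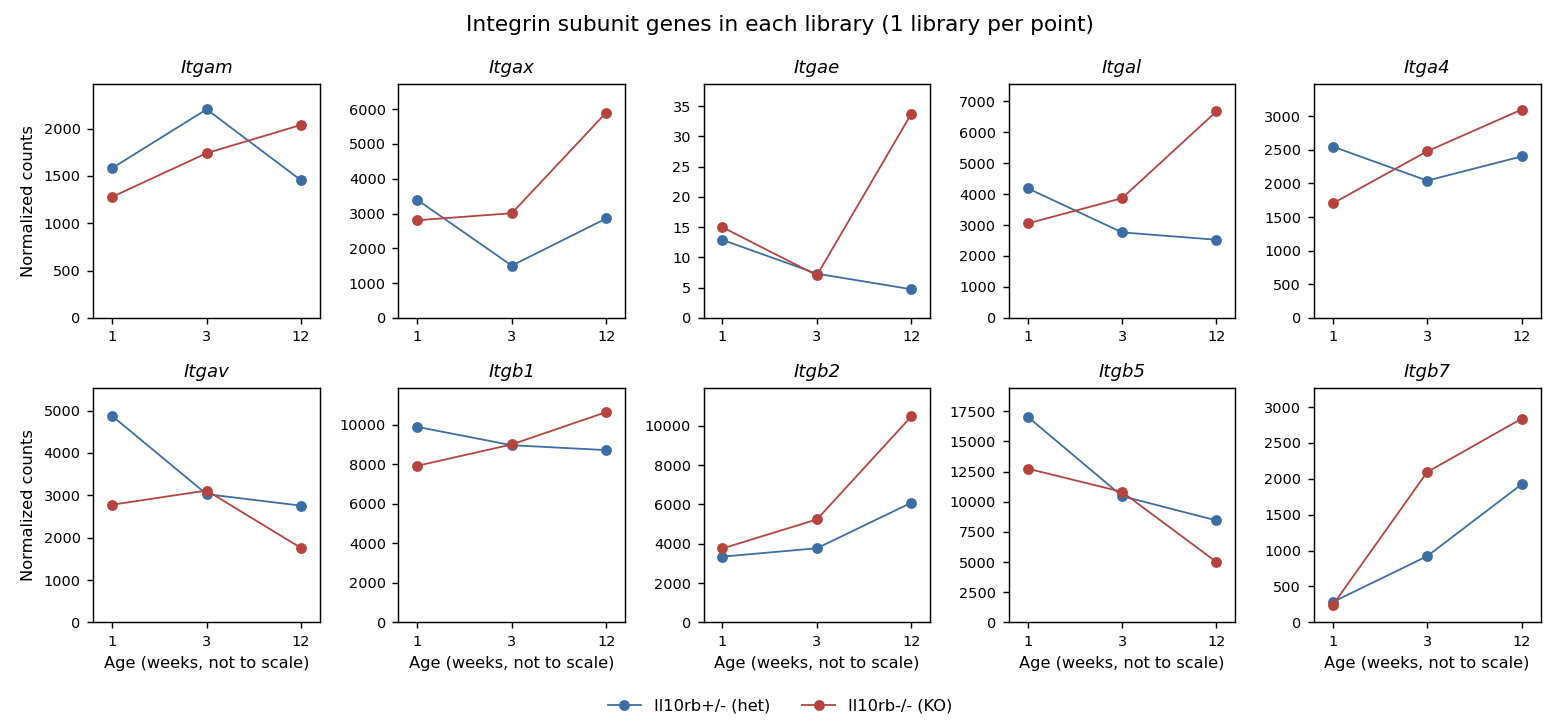
Normalized counts (y axis, starting at 0, its own scale per panel) of each integrin gene against age in weeks (x axis, not to scale), with 1 point per library, blue for Il10rb+/- and red for Il10rb-/-. *Itgb2* and *Itgb7* are highest in the 12-week *Il10rb-/-* library at 10471 and 2838, and *Itgb5* and *Itgav* are lowest there at 5000.5 and 1756.

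Among the β2 partners, *Itgal*, which encodes the αL chain of LFA-1, had the widest genotype difference at 12 weeks of the 9 members that passed the filter. At 1 and 3 weeks other members differed by more. It had 4188, 2762 and 2524 normalized counts in *Il10rb+/-* MΦs and 3049, 3866 and 6673 in *Il10rb-/-* MΦs at 1, 3 and 12 weeks (chr7:127296260-127335138). The *Il10rb-/-* library was therefore the lower at 1 week and the higher at 3 and 12 weeks, with log2 ratios of -0.46 (-0.53 to -0.38), 0.49 (0.39 to 0.58) and 1.40 (1.36 to 1.45), the last a 2.64-fold difference. *Itgb2*, the shared β chain whose loss causes leukocyte adhesion deficiency, had 3341, 3767 and 6083 normalized counts in *Il10rb+/-* MΦs and 3758, 5233 and 10471 in *Il10rb-/-* MΦs (chr10:77530252-77565708). It was the only member higher in the *Il10rb-/-* library at all 3 ages, with log2 ratios of 0.17 (0.09 to 0.24), 0.47 (0.39 to 0.56) and 0.78 (0.75 to 0.82). The genotype groups still overlapped, since the *Il10rb+/-* library at 12 weeks was above the *Il10rb-/-* library at 3 weeks.

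Levels of different genes were compared per kilobase of exon, within a library. *Itgam* held 37.4% of the summed *Itgam*, *Itgax* and *Itgal* level in the 3-week *Il10rb+/-* library, against 15.3% to 22.8% in the other 5. *Itgax* over *Itgam* was 2.24, 0.71 and 2.06 in *Il10rb+/-* MΦs and 2.30, 1.81 and 3.03 in *Il10rb-/-* MΦs at 1, 3 and 12 weeks. The 3-week *Il10rb+/-* library was thus the only one in which *Itgam* exceeded *Itgax*, and it was also the shallowest library. The 3 α chains together, relative to *Itgb2*, were at 1.52, 0.95 and 0.64 in *Il10rb+/-* MΦs and 1.06, 0.91 and 0.77 in *Il10rb-/-* MΦs, lowest at 12 weeks in both genotypes. These ratios do not depend on how libraries were scaled, but they are of RNA and not of paired receptors.

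*Itga4* encodes the α4 chain that pairs with β1 or β7 (chr2:79255426-79333123). It had 2549, 2042 and 2402 normalized counts in *Il10rb+/-* MΦs and 1703, 2479 and 3098 in *Il10rb-/-* MΦs at 1, 3 and 12 weeks. The *Il10rb-/-* library was lower at 1 week, with a log2 ratio of -0.58 (-0.68 to -0.48), and higher at 3 weeks, 0.28 (0.17 to 0.39), and 12 weeks, 0.37 (0.31 to 0.42). *Cerkl*, on the opposite strand, overlaps the 3′ end of *Itga4* and had 159 to 266 normalized counts.

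*Itgb7* encodes the β7 chain of the gut-homing integrin α4β7 and of αEβ7 (chr15:102215995-102231944), and it varied more than any other member. It had 283, 922 and 1924 normalized counts in *Il10rb+/-* MΦs and 239.6, 2095 and 2838 in *Il10rb-/-* MΦs at 1, 3 and 12 weeks. Both 1-week libraries were the lowest of the 6, and the highest library had 11.8 times the level of the lowest. From 1 to 3 weeks the level was 3.26-fold higher in *Il10rb+/-* MΦs and 8.74-fold higher in *Il10rb-/-* MΦs, and *Itgb7* was the only member past the study's threshold of 3-fold in any ratio apart from the sparse *Itgae*. Of all 11067 genes passing the filter, 6.56% and 5.02% were past 3-fold in these respective comparisons. With scaling by total reads the first *Itgb7* log2 ratio was 1.57, just short of 3-fold. From 3 to 12 weeks the *Itgb7* log2 ratio was 1.06 (0.91 to 1.22) in *Il10rb+/-* MΦs and 0.44 (0.37 to 0.51) in *Il10rb-/-* MΦs. Between genotypes its log2 ratio was -0.24 (-0.53 to 0.05) at 1 week, 1.18 (1.03 to 1.34) at 3 weeks and 0.56 (0.50 to 0.62) at 12 weeks, so that no difference could be resolved at 1 week with these read numbers.

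*Itgb1*, the widely used β1 chain that binds matrix and VCAM-1 through its α partners (chr8:128685654-128733200), was the steadiest member. It had 9896, 8967 and 8720.1 normalized counts in *Il10rb+/-* MΦs and 7926, 9007 and 10645 in *Il10rb-/-* MΦs at 1, 3 and 12 weeks, a range of 1.34-fold over all 6 libraries. Relative to this steady chain, *Itgb7* per kilobase was at 0.042, 0.152 and 0.325 in *Il10rb+/-* MΦs and 0.045, 0.343 and 0.393 in *Il10rb-/-* MΦs. The balance of α4 to β7 RNA moved the other way, with *Itga4* over *Itgb7* at 1.79, 0.44 and 0.25 in *Il10rb+/-* MΦs and 1.41, 0.23 and 0.22 in *Il10rb-/-* MΦs. *Itga4* RNA thus exceeded *Itgb7* RNA per length at 1 week and was below it at both later ages, in both genotypes.

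**Figure D2:**
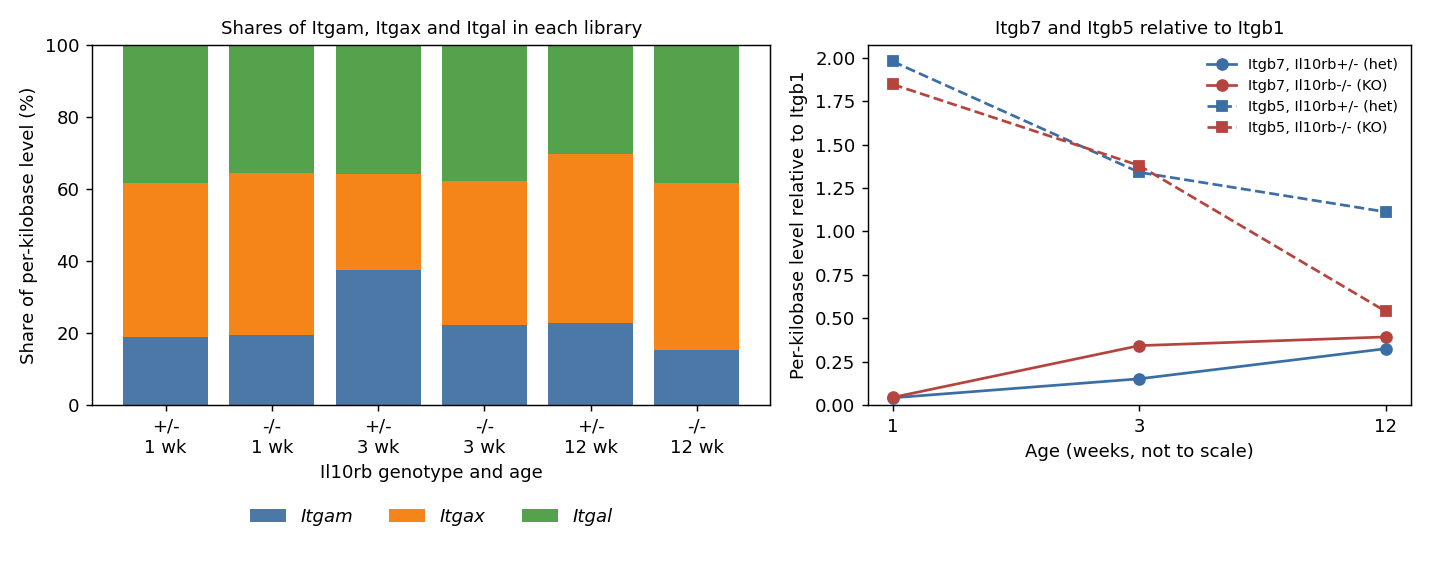
Left, share in percent of the summed per-kilobase level of *Itgam*, *Itgax* and *Itgal* held by each, 1 bar per library. Right, per-kilobase level of *Itgb7* (circles) and *Itgb5* (squares) relative to *Itgb1* against age in weeks (not to scale), blue for Il10rb+/- and red for Il10rb-/-. *Itgam* takes 37.4% in the 3-week *Il10rb+/-* library, and *Itgb5* is at 0.54 of *Itgb1* in the 12-week *Il10rb-/-* library against 1.11 to 1.98 elsewhere.

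The αv and β5 chains, which together bind vitronectin and MFG-E8, were lowest in the 12-week *Il10rb-/-* library. *Itgav* (chr2:83724397-83806916) had 4873, 3027 and 2756 normalized counts in *Il10rb+/-* MΦs and 2778, 3113 and 1756 in *Il10rb-/-* MΦs at 1, 3 and 12 weeks. *Itgb5* (chr16:33829665-33949338) had 17052, 10467 and 8448 in *Il10rb+/-* MΦs and 12748, 10818 and 5000.5 in *Il10rb-/-* MΦs. For both genes the *Il10rb-/-* library was the lower at 1 and 12 weeks and the pair was close at 3 weeks. The *Itgav* log2 ratios were -0.81 (-0.89 to -0.73), 0.04 (-0.05 to 0.13) and -0.65 (-0.72 to -0.58), and the *Itgb5* log2 ratios were -0.42 (-0.46 to -0.38), 0.05 (-0.00 to 0.10) and -0.76 (-0.79 to -0.72). *Itgav* over *Itgb5* stayed between 0.072 and 0.116 per kilobase, while *Itgb5* over *Itgb1* was 1.98, 1.34 and 1.11 in *Il10rb+/-* MΦs and 1.85, 1.38 and 0.54 in *Il10rb-/-* MΦs. The summed MΦ markers were also lowest in the 12-week *Il10rb-/-* library, and their part in the lower *Itgav* and *Itgb5* levels was not tested.

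In order of median level per kilobase over the 6 libraries, the members ran *Itgb5* (2995 normalized counts per kilobase), *Itgb1* (2202), *Itgb2* (1474), *Itgax* (610), *Itgal* (526), *Itgb7* (514), *Itgam* (331), *Itgav* (270), *Itga4* (175) and *Itgae* (2.2). The ranges of each pair of neighbours in this order overlapped, except that *Itgae* lay below *Itga4* in every library. *Itgb5* was the highest member in 5 libraries, whereas *Itgb2* was the highest in the 12-week *Il10rb-/-* library. With the longest annotated transcript as the length, the medians of *Itgav* (412) and *Itgam* (355) changed places and the rest of the order held.

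Set side by side, the 9 members past the filter were mostly lower in the *Il10rb-/-* library at 1 week and mostly higher at later ages. At 1 week, 7 were lower in the *Il10rb-/-* library with intervals below 0, *Itgb2* was higher and the *Itgb7* interval held 0, while 30.9% of all genes had intervals below 0 and 23.6% above. At 3 weeks, 5 were higher with intervals above 0 (*Itgax*, *Itgal*, *Itga4*, *Itgb2* and *Itgb7*), *Itgam* was lower, and the intervals of *Itgav*, *Itgb1* and *Itgb5* held 0, while 20.6% of all genes had intervals above 0 and 16.4% below. At 12 weeks, 7 were higher and *Itgav* and *Itgb5* were lower, all with intervals apart from 0, while 43.3% of all genes had intervals above 0 and 38.3% below. The median log2 ratio of the 9 members was -0.32, 0.28 and 0.49 at 1, 3 and 12 weeks, beside -0.04, 0.02 and 0.04 over all genes tested. These interval counts were the same when libraries were scaled by TMM or by total reads, although the latter shifted every 12-week log2 ratio by -0.22. No member was past 3-fold at any age, whereas 3.5% of all genes were at 1 week, 1.98% at 3 weeks and 14% at 12 weeks.

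**Figure D3:**
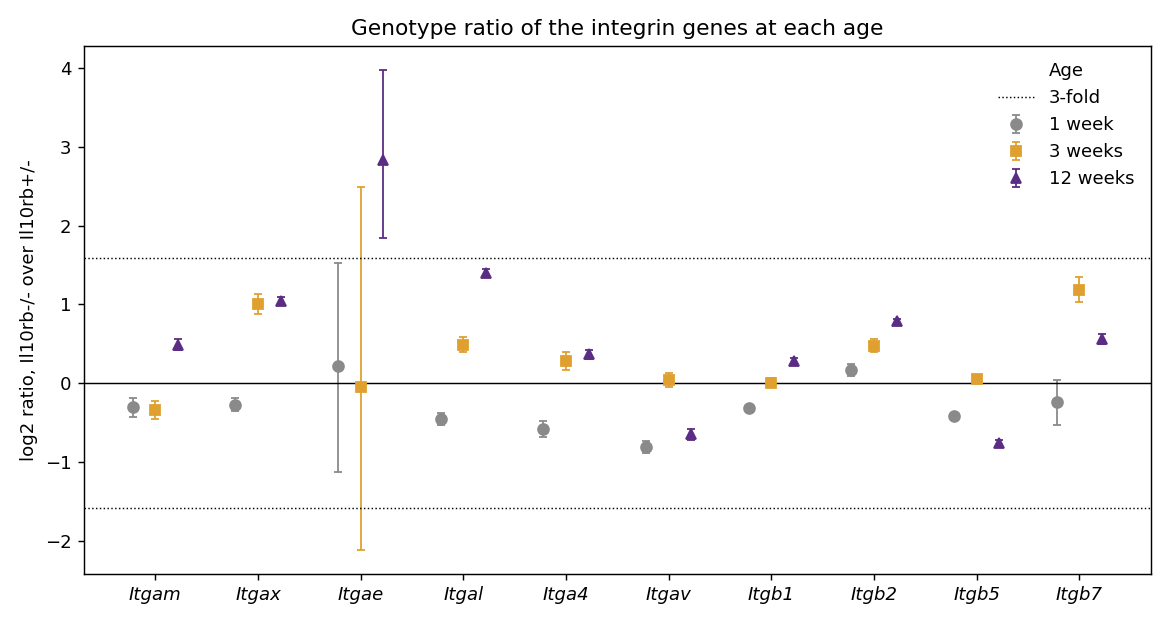
Log2 ratio of *Il10rb-/-* over *Il10rb+/-* (y axis) for each integrin gene (x axis) at 1 week (circles), 3 weeks (squares) and 12 weeks (triangles). Bars are 95% exact intervals of counting error, the solid line marks no difference and the dotted lines mark 3-fold. *Itgal* reaches 1.40 and *Itgb5* -0.76 at 12 weeks, while *Itgae* at 2.84 rests on 53 and 10 reads.

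A fit over all 6 libraries, with age as the second factor, tested the genotype difference against its variation between ages. By limma, 0 of the 9 members passed an adjusted p of 0.05, and 0% of the 11067 genes tested did. At an unadjusted p under 0.05 there were 853 genes, of which *Itgb2* was the only member, with a log2 difference of 0.48 (SE 0.18, adjusted p = 0.627). *Itgax* differed by 0.59 (SE 0.30, adjusted p = 0.627) and *Itgav* by -0.47 (SE 0.21, adjusted p = 0.627) in the same limma fit. *Itgam*, *Itga4* and *Itgb1* had fitted differences of -0.05, 0.02 and -0.01. The disrupted gene *Il10rb* itself had an adjusted p of 0.0616 in limma at a log2 difference of -5.68 (SE 0.34). An exact permutation of genotype within each age cannot give a two-sided p below 0.25.

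With age, *Itgb7* and *Itgb2* rose in both genotypes. Between 1 and 12 weeks, limma gave *Itgb7* a log2 change of 3.16 (SE 0.35, adjusted p = 0.0167) and *Itgb2* a log2 change of 1.17 (SE 0.23, adjusted p = 0.0443). These were 2 of 9 members, both higher at 12 weeks, where 7.25% of all genes tested were called and 5.01% were called higher. Over all genes tested, 555 were called higher and 247 lower. The call on *Itgb2* was lost, by limma's adjusted p, without the 1-week *Il10rb+/-* (0.0769), 1-week *Il10rb-/-* (0.222), 3-week *Il10rb+/-* (0.0936) or 3-week *Il10rb-/-* (0.0919) library, and with scaling by total reads (0.0522, log2 change 0.68), which shifted all genes by -0.49 in this comparison. Without the mean-variance trend both calls were lost (adjusted p by limma 0.0906 for *Itgb2* and 0.0592 for *Itgb7*). Without the 12-week *Il10rb-/-* library it held (adjusted p by limma 0.0152), as did that on *Itgb7* (5.17e-05), and the *Itgb7* call held with each other library left out in turn. Without the 12-week *Il10rb+/-* library 6 members were called, with 3909 of all genes in place of 802. *Itgb5* had a log2 change of -1.18 (SE 0.26, adjusted p by limma 0.0578) and *Itgav* of -0.74 (SE 0.26, adjusted p by limma 0.128), and both were past 0.05 with scaling by total reads (0.0303 and 0.0382).

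Over the shorter steps 0 of the 9 members passed by limma, with 1 from 1 to 3 weeks and 3 from 3 to 12 weeks at an unadjusted p under 0.05. At that level were 957 and 2261 of all 11067 genes tested in these respective steps. From 1 to 3 weeks *Itgb7* had the largest fitted log2 change of the members, 2.41 (SE 0.35, adjusted p by limma 0.144), where 0.0181% of genes were called, and from 3 to 12 weeks 0.0271% were. Member calls with 1 library left out are given beside those over all genes in the section on the processing. Within genotypes, *Itgax* was lower at 3 than at 1 week in *Il10rb+/-* MΦs, with a log2 ratio of -1.18 (-1.30 to -1.05), and little different in *Il10rb-/-* MΦs, 0.10 (0.02 to 0.18). *Itgb5* was lower at 12 than at 3 weeks in both, by -0.31 (-0.36 to -0.26) and -1.11 (-1.15 to -1.07) on the log2 scale. Past 3-fold from 3 to 12 weeks were 6.36% of all genes in *Il10rb+/-* and 14.2% in *Il10rb-/-* MΦs, and no member that passed the filter. These age comparisons within a genotype share the 3-week library.

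**Figure D4:**
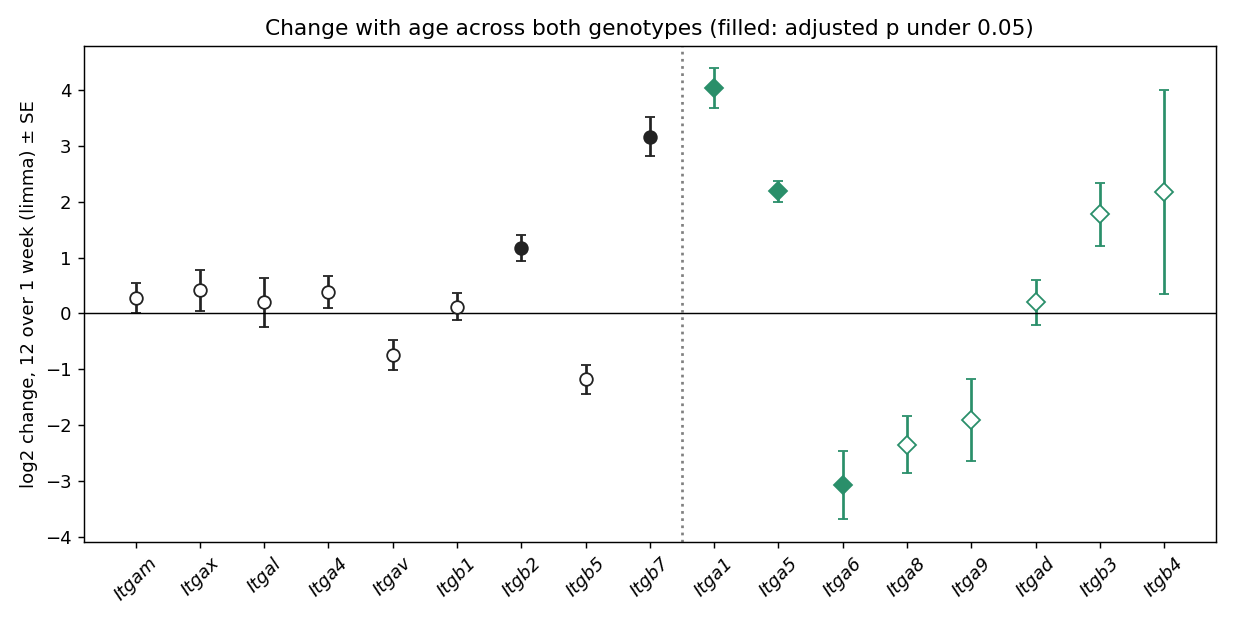
Fitted log2 change between 1 and 12 weeks (y axis, limma, with SE as bars) for the 9 members that passed the filter (black circles) and 8 other integrin subunit genes (green diamonds). Filled symbols have an adjusted p under 0.05: *Itgb7* at 3.16, *Itgb2* at 1.17, *Itga1* at 4.03, *Itga5* at 2.19 and *Itga6* at -3.07.

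Of 16 other integrin subunit genes listed, 13 were in the table and 8 passed the filter. Between 1 and 12 weeks 2 of these 8 rose and 1 fell by limma, where 7.25% of all genes were called and 5.01% were called higher. For genotype 0 of the 8 passed, with 1 at an unadjusted p under 0.05, beside 853 of all 11067 genes tested. *Itga1*, the α1 collagen receptor chain, had 12.9, 438 and 221 normalized counts in *Il10rb+/-* MΦs and 13.5, 281 and 241 in *Il10rb-/-* MΦs at 1, 3 and 12 weeks. It rose by 4.03 on the log2 scale (SE 0.35, adjusted p by limma 0.0119). *Itga5*, the α5 fibronectin receptor chain, had 794, 1273 and 3934 normalized counts in *Il10rb+/-* MΦs and 949.6, 1513 and 3983 in *Il10rb-/-* MΦs, a log2 rise of 2.19 (SE 0.19, adjusted p by limma 0.0114). The genotypes were close at each age for both genes, apart from the lower *Itga1* of the 3-week *Il10rb-/-* library.

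*Itga6*, the α6 laminin receptor chain, went the other way with age. It had 1919.6, 487 and 504 normalized counts in *Il10rb+/-* MΦs and 1308, 371 and 69.4 in *Il10rb-/-* MΦs, and its log2 change from 1 to 12 weeks was -3.07 (SE 0.61, adjusted p by limma 0.0466). Its call was lost without the mean-variance trend (0.104) and without each of the 1-week libraries (adjusted p by limma up to 0.135), whereas the calls on *Itga1* and *Itga5* held under all 11 alternatives. *Itga9*, the α9 tenascin receptor chain, had 6856, 3916 and 4231 normalized counts in *Il10rb+/-* MΦs and 3729, 3788 and 429 in *Il10rb-/-* MΦs. Its 12-week log2 ratio between genotypes was -3.30 and that of *Itga6* was -2.86. *Itgb4*, the β4 partner of α6, passed the filter through the 12-week *Il10rb+/-* library alone, at 61.9 normalized counts against 10.5 or fewer elsewhere, so its genotype ratio was not read. The 5 subunit genes that missed the filter had 49.7 normalized counts or fewer in every library. *Itga1*, *Itga5*, *Itga6*, *Itga9* and *Itgb4* were singled out after their values were seen.

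**Figure D5:**
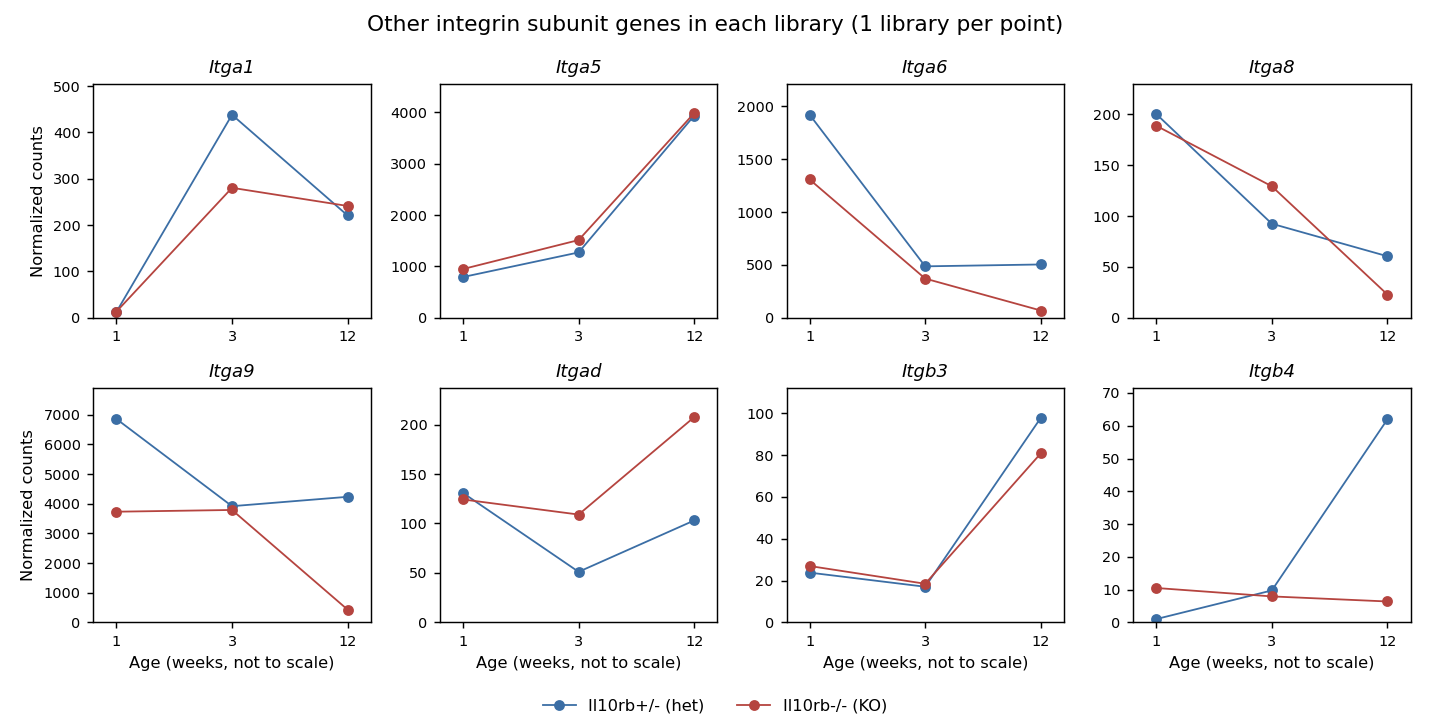
Normalized counts (y axis, starting at 0, its own scale per panel) of 8 other integrin subunit genes against age in weeks (x axis, not to scale), 1 point per library, blue for Il10rb+/- and red for Il10rb-/-. *Itga5* reaches 3934 and 3983 at 12 weeks in the 2 genotypes, while *Itga9* is at 429 in the 12-week *Il10rb-/-* library against 4231 in its *Il10rb+/-* counterpart.

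Integrins bind only once talin and kindlin attach to the β tail inside the cell, and 30 of the 31 genes listed for this machinery passed the filter. None passed for genotype by limma, and 4 of the 30 did at an unadjusted p under 0.05, beside 853 of all 11067 genes tested. Between 1 and 12 weeks 5 rose and 1 fell, where 7.25% of all genes were called and 5.01% were called higher. All 6 calls were lost without the mean-variance trend (adjusted p by limma 0.0512 to 0.0838), a setting that left 83 genes called in place of 802. The risers were *Fgr*, a Src-family kinase of myeloid cells, at 2.0 (adjusted p by limma 0.0250), *Pxn*, the scaffold paxillin, at 1.51 (0.0351), *Cyth1*, a β2 tail-binding exchange factor, at 1.48 (0.0245), *Parvb*, a partner of integrin-linked kinase, at 1.71 (0.0460), and *Rasgrp2*, the activator of Rap1, at 1.86 (0.0323). *Tln2*, the minor talin, had 634, 243 and 21.3 normalized counts in *Il10rb+/-* MΦs and 356, 186 and 3.18 in *Il10rb-/-* MΦs, a log2 change of -5.62 (SE 0.55, adjusted p by limma 0.0125). Without the 1-week *Il10rb-/-* library the calls on *Fgr*, *Pxn*, *Cyth1*, *Parvb* and *Rasgrp2* were lost, without the 1-week *Il10rb+/-* library those on *Fgr*, *Pxn*, *Parvb* and *Rasgrp2*, and without either 3-week library those on *Parvb* and *Rasgrp2*, with adjusted p by limma of up to 0.208. *Parva*, a relative of *Parvb*, passed the filter through the 12-week *Il10rb+/-* library alone, with 4, 19 and 168 reads in *Il10rb+/-* MΦs and 19, 16 and 29 in *Il10rb-/-* MΦs. Since *Parva* was kept only for its 12-week *Il10rb+/-* level, its 12-week genotype ratio was not read. Its log2 ratios of 2.84 (1.25 to 4.86) at 1 week and -1.72 (-2.77 to -0.68) at 3 weeks rest on 4 to 19 reads per library. The main talin *Tln1*, at 5883 to 8848 normalized counts, and the leukocyte kindlin *Fermt3*, at 4594 to 6340, varied little over the libraries. The median fitted genotype difference of the 30 genes was 0.14, and the genes of this paragraph other than *Parva* were named after their values were seen.

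Among 20 genes of integrin ligands and latent TGF-β, 16 passed the filter. *C3*, whose cleaved product is bound by αMβ2 and αXβ2, rose between 1 and 12 weeks by 3.42 on the log2 scale (SE 0.40, adjusted p by limma 0.0185), the only call in the list, where 7.25% of all genes were called. Without the mean-variance trend this call was lost (adjusted p by limma 0.0606), and it held under the other 10 alternatives. *C3* had 701, 2239 and 4310.4 normalized counts in *Il10rb+/-* MΦs and 1478, 5991 and 27522 in *Il10rb-/-* MΦs, with genotype log2 ratios of 1.08, 1.42 and 2.67. *Thbs1*, the matrix protein thrombospondin that activates latent TGF-β, had 15219, 29085 and 35157 normalized counts in *Il10rb+/-* MΦs and 43043, 42899 and 137739 in *Il10rb-/-* MΦs, the higher in each age pair. For genotype, 0 of the 16 genes passed in limma and 2 did at an unadjusted p under 0.05, beside 853 of all 11067 genes tested. *Jam3*, a junction protein bound by αMβ2, passed the filter through the 12-week *Il10rb+/-* library alone, with 11, 3 and 152 reads in *Il10rb+/-* MΦs and 3, 2 and 8 in *Il10rb-/-* MΦs. Its 3-week log2 ratio of -2.05 rests on 2 against 3 reads, and the interval (-5.64 to 1.07) held 0. *C3* and *Thbs1* were singled out after their values were seen.

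Beside these values, the other genes of the gate were as follows. *Fcgr1*, encoding CD64, had 1285 to 2043 normalized counts, and *Ptprc*, encoding CD45, 16062 to 32232. *H2-Aa* and *H2-Ab1*, the MHCII chains, had at least 121104 normalized counts in every library. *Ly6c2*, which encodes the Ly6C antigen excluded by the gate, had 5.95, 9.73 and 143 in *Il10rb+/-* MΦs and 4.49, 285 and 2611 in *Il10rb-/-* MΦs, so it was more than 3-fold higher in the *Il10rb-/-* library at 3 and 12 weeks. The relation of *Ly6c2* to the integrin ratios was not tested. *Ly6c1* had 115.9 normalized counts in the 12-week *Il10rb-/-* library and 585 in its *Il10rb+/-* counterpart.

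Markers of other cells also stood apart in the 12-week *Il10rb-/-* library. None of the 10 MΦ markers was higher there than in the 12-week *Il10rb+/-* library, whereas 5759 of all 11067 genes tested were. The fall was uneven. More than 3-fold lower were 7 of the 10, beside 1106 of all genes tested, whereas *Csf1r* was close at 46878 against 47225 normalized counts. Unlike the count over all genes tested, the marker counts that follow include genes below the filter. Dendritic cell markers (without *Itgae*) were higher there in 7 of 11 and summed to 6061 to 44425 normalized counts in *Il10rb-/-* libraries and 4962 to 14982 in *Il10rb+/-* libraries, with *Ccr7* making up 38707 of the highest sum and *Siglech* at 0 in that library. Neutrophil markers were higher in 10 of 11 and, with the *Il10rb-/-* range given first here and for the lists that follow, summed to 2010 to 13574 and 2730 to 4356, with *Ly6g*, *Camp* and *Ngp* at 0 in the 12-week *Il10rb+/-* library. T cell markers were higher in 8 of 11, although their sum was lowest there, at 2164 to 3045 and 2910 to 3808, with *Cd4* at 210 against 1712 and *Il7r* at 947 against 1750 in that pair. *Cd8a* was at 0 reads in the 12-week *Il10rb+/-* library. Monocyte markers were higher in 5 of 6 and summed to 11552 to 32668 and 5056 to 34656, and B and plasma cell markers were higher in 0 of 7 and summed to 762 to 1845 and 1107 to 17538. Of 9 mast cell markers listed, 3 were among the deposited genes. They were higher in 2 of 3, *Kit* and *Hdc*, and summed to 187 to 6304 and 137 to 600. *Kit* is also counted among the dendritic cell markers. The remaining marker, *Cma1*, had 1 read there against 0 reads, which the deposited values show as 1. Eosinophil markers were higher in 0 of 4 and summed to 60.5 to 156 and 105 to 233, and epithelial markers were higher in 9 of 11 and summed to 810 to 2348 and 184 to 1574. *Csf1r*, *Ccr7*, *Cd3e*, *Cd3g*, *Cd4*, *Cd8b1*, *Il7r*, *Kit* and *Hdc* were singled out after their values were seen. The part of these cells in the 12-week integrin ratios was not tested. β2 integrins are carried by neutrophils, monocytes, dendritic cells and lymphocytes as well as by MΦs.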

How the data were processed

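Poly(A) RNA from sorted colonic MΦs was sequenced as 75-base single reads. Per the labels and the study's methods, the authors trimmed reads with Trim Galore, aligned them to mm10 with TopHat, counted genes with HTSeq and divided by DESeq size factors. Versions, annotation and strand setting are not given in the sources used here. The deposited values are therefore normalized counts, a signal per gene and not raw counts, with 0 reads shown as 1. Whole reads were read back from each library's smallest step (tolerance 0.1 read).

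Groups followed the labels. Genes with 50 or more normalized counts in at least 1 library (11067 of 14097) were tested with limma 3.58.1 in R 4.3.3 on log2(value + 1), with terms for genotype and age, a prior variance that follows the mean level, and p-values adjusted by Benjamini-Hochberg. The fit had 2 residual degrees of freedom: the error of genotype is its variation between ages, and that of age its variation between genotypes. Fitted changes are on the log2(value + 1) scale, which understates those of low genes. P-values measure the spread between these libraries only. Ratios at 1 age carry exact Clopper-Pearson 95% intervals of the reads, which cover counting error only, since reads without molecular identifiers are not independent molecules. Levels per kilobase used the union of exons in GENCODE M21 (GRCm38). Scripts were tested on simulated data.

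The members and all lists were chosen with earlier results of these data known. Every member is named. From other lists, genes called for genotype or past 3-fold the same way at 2 or more ages, and the gate genes, were to be named. Marker lists were to be given by counts and sums, with markers at 0 named. Any further gene is given as chosen after its values were seen. Other scalings, filters, pseudocounts, a fit without the trend or without age, the longest annotated transcript as the length, and leaving out each library were tried.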

Additional observations from a re-analysis of the deposited data

How the results depend on the processing

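The 6 libraries give 1 per genotype and age, so depth limits mainly *Itgae*, whose genotype intervals at 1 and 3 weeks held 0. Leaving out a library leaves 1 at that age, which is then assumed to vary like the others. Planned count models were not run, since the table holds normalized values with 0 shown as 1. No directions of the members' genotype ratios with intervals apart from 0 reversed.

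For genotype, 0 genes called became 1 with a pseudocount of 10, 1 without the age term, and 0 to 74 leaving out 1 library. For 3 against 1 week, 2 genes became 8 with a pseudocount of 10, 0 without the trend and 1 to 1016 leaving out 1 library, with 0 to 1 member called. For 12 against 3 weeks, 3 genes became 8 with a pseudocount of 10, 0 with scaling by total reads, 0 without the trend and 1 to 3124 leaving out 1 library, with 0 to 4 members called. For 12 against 1 week, 802 genes became 2476 with scaling by total reads, 83 without the trend and 267 to 3909 leaving out 1 library, and the 2 members called became 0 without the trend (adjusted p by limma 0.0906 for *Itgb2* and 0.0592 for *Itgb7*) and 1 to 6 leaving out 1 library. The cause was not tested.

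Genes past 3-fold between genotypes numbered 387 at 1 week (125 with a pseudocount of 10, 1124 with no filter, 133 with the filter applied to the pair), 219 at 3 weeks (85, 895 and 105) and 1552 at 12 weeks (2947 with no filter, which adds 1 member, *Itgae*). From 1 to 3 weeks there were 726 in *Il10rb+/-* (440, 1657 and 475) and 556 in *Il10rb-/-* (313 and 1413 for the first 2 settings), and from 3 to 12 weeks 704 (1964 with no filter) and 1571 (2753 with no filter, with 1 member). With scaling by total reads 0 members were past 3-fold from 1 to 3 weeks in *Il10rb+/-*, and log2 ratios reversed for *Itgax* (-0.083) and *Itgav* (-0.019) from 1 to 3 weeks in *Il10rb-/-*, for *Itga4* (-0.0066) from 3 to 12 weeks in *Il10rb+/-*, and for *Itgam* (-0.19), *Itga4* (-0.095) and *Itgb1* (-0.18) from 3 to 12 weeks in *Il10rb-/-*.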
